A study of Mus musculus with 8 samples.

Results

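The genes described here are 3 NeuroD transcription factor genes, Neurod1, Neurod2 and Neurod6, together with 6 further genes of cortical excitatory neurons: Tbr1, Mef2c, Cux2, Slc17a7, Nptx1 and Kctd4. They were taken as all probe sets whose single platform gene symbol is one of these 9 names. This gave 14 probe sets for 8 genes, out of 22626 tested probe sets and 12393 genes with a symbol of their own. Mef2c had 5 probe sets, Neurod1 and Nptx1 had 2 each, and the other 5 genes had 1 each. Slc17a7, the vesicular glutamate transporter gene of cortical neurons, has no probe set with its name as the single symbol and was not analysed here. The genes were selected on the BSKO minus WT differences of these same arrays, so their genotype differences are given as a description and are not tested as members.

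In BSKO mice the NAD-dependent deacetylase SIRT1 was deleted in the brain only, and WT littermates served as controls. All were C57/B6 males at an age of 3 months, and total RNA was taken from the whole brain. Each genotype had 4 biological replicates, and each was hybridised to its own Affymetrix Mouse430A_2 array, whose number limits the precision. The promoter that drove the deletion, the cells it reached and the deleted part of Sirt1 were not given in the sources used here.

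NeuroD proteins are basic helix-loop-helix transcription factors. They pair with E proteins such as Tcf4, bind short DNA motifs called E-boxes and drive neuronal differentiation. Neurod1 is known for its part in granule neurons of the dentate gyrus and the cerebellum, while Neurod2 and Neurod6 are widely used as marks of pyramidal neurons in cortex and hippocampus. Tbr1, Mef2c and Cux2 are transcription factor genes that mark or shape cortical excitatory neurons, and Nptx1 encodes a secreted pentraxin of excitatory synapses.

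The stretch before the start of each of the 3 NeuroD genes is shown with the E-boxes it holds. These are the 250 bases before the gene start, 5′ to 3′ on the gene's strand, from RefSeq on GRCm38.p6, with every E-box (CANNTG, which reads the same on both strands) in capitals. The positions are chr2:79456637-79456886 for Neurod1, chr11:98329646-98329895 for Neurod2 and chr6:55681264-55681513 for Neurod6, all on the minus strand.
Neurod1: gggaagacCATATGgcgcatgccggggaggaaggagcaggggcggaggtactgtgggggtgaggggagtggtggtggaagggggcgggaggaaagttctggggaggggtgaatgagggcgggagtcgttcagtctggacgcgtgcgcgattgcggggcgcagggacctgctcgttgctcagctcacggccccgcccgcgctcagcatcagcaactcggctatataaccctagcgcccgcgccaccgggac
Neurod2: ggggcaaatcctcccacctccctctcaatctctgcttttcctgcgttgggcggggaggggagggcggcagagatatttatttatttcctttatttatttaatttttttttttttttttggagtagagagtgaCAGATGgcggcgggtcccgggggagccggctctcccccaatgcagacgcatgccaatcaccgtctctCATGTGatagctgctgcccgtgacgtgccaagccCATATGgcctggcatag
Neurod6: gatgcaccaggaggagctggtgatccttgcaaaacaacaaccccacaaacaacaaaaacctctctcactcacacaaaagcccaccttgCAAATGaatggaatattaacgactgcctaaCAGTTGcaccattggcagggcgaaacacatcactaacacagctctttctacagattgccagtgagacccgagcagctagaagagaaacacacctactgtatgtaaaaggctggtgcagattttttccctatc
Neurod1 had 1 E-box in this window, CATATG, which begins 242 bases before the start. In the Neurod2 window there were 3, CAGATG at 118 bases, CATGTG at 51 and CATATG at 17. Neurod6 held 2, CAAATG at 162 bases and CAGTTG at 132. Of 32851 windows of this length in the RefSeq promoter table, 66.2% held at least 1 CANNTG, 14.4% held CAGATG on either strand and 3.46% held CATATG. A match is a description of these letters and not a binding site. A link between the E-boxes and the array values was not tested. Of the 9 genes, 7 had an entry in the promoter table.

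The deposited log2 values are centred on 0 within every probe set. They show how arrays differ but hold no expression level, and whether a gene is expressed at all cannot be read from them. BSKO 2 stood apart. The SD over all tested probe sets was 0.831 on this array, against 0.150 to 0.314 on the other 7. For beta-actin, the 5′ minus 3′ value was -2.44 on BSKO 2 and -0.10 to 0.49 elsewhere, and for Gapdh it was -2.43, against -0.075 to 0.095. Sirt1 itself (probe set 1418640_at) had 0.076, -1.46, -0.20 and -0.059 on BSKO 1 to 4, against 0.0041, -0.0041, 0.082 and 0.29 on WT 1 to 4, and the genotypes overlapped. As the deleted part is not known here, this probe set checks nothing about the labels. Among the members, BSKO 2 was the lowest of the 8 arrays for 9 of the 14 probe sets and the highest for 1. It was the lowest or highest for 75.2% of all tested probe sets. Results are therefore given with 8 arrays and without BSKO 2.

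Kctd4 and Neurod1 stood lower in BSKO brain by 1.07 to 1.55 on the log2 scale. Neurod6 and 1 probe set of Nptx1 were lower by 0.63 or less, and Cux2 was slightly higher. Neurod2, Tbr1 and Mef2c overlapped between genotypes. With 8 arrays so did 1426413_at of Neurod1 and 1434877_at of Nptx1. Of the 14 probe sets, 12 were lower in BSKO on average and 2 higher. Without BSKO 2 the split was 10 and 4. In the limma fit over all 22626 probe sets, 1 of the 14 had an adjusted p under 0.05 with 8 arrays, Kctd4, where 0.0309% of all probe sets passed and 0.0221% passed in the lower direction. Without BSKO 2 there were 3, Kctd4 and both Neurod1 probe sets, where 1.63% of all passed and 1.14% did so as lower. The genotypes did not overlap for 5 of the 14, 4 lower and 1 higher, where 12.3% of all tested probe sets did not (6.66% lower and 5.67% higher). Without BSKO 2 this held for 6 of the 14, 5 lower and 1 higher, where it held for 19.5% of all (10.3% lower and 9.21% higher). As the members were picked with this contrast known, nothing is read from these shares.

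**Figure D1:**
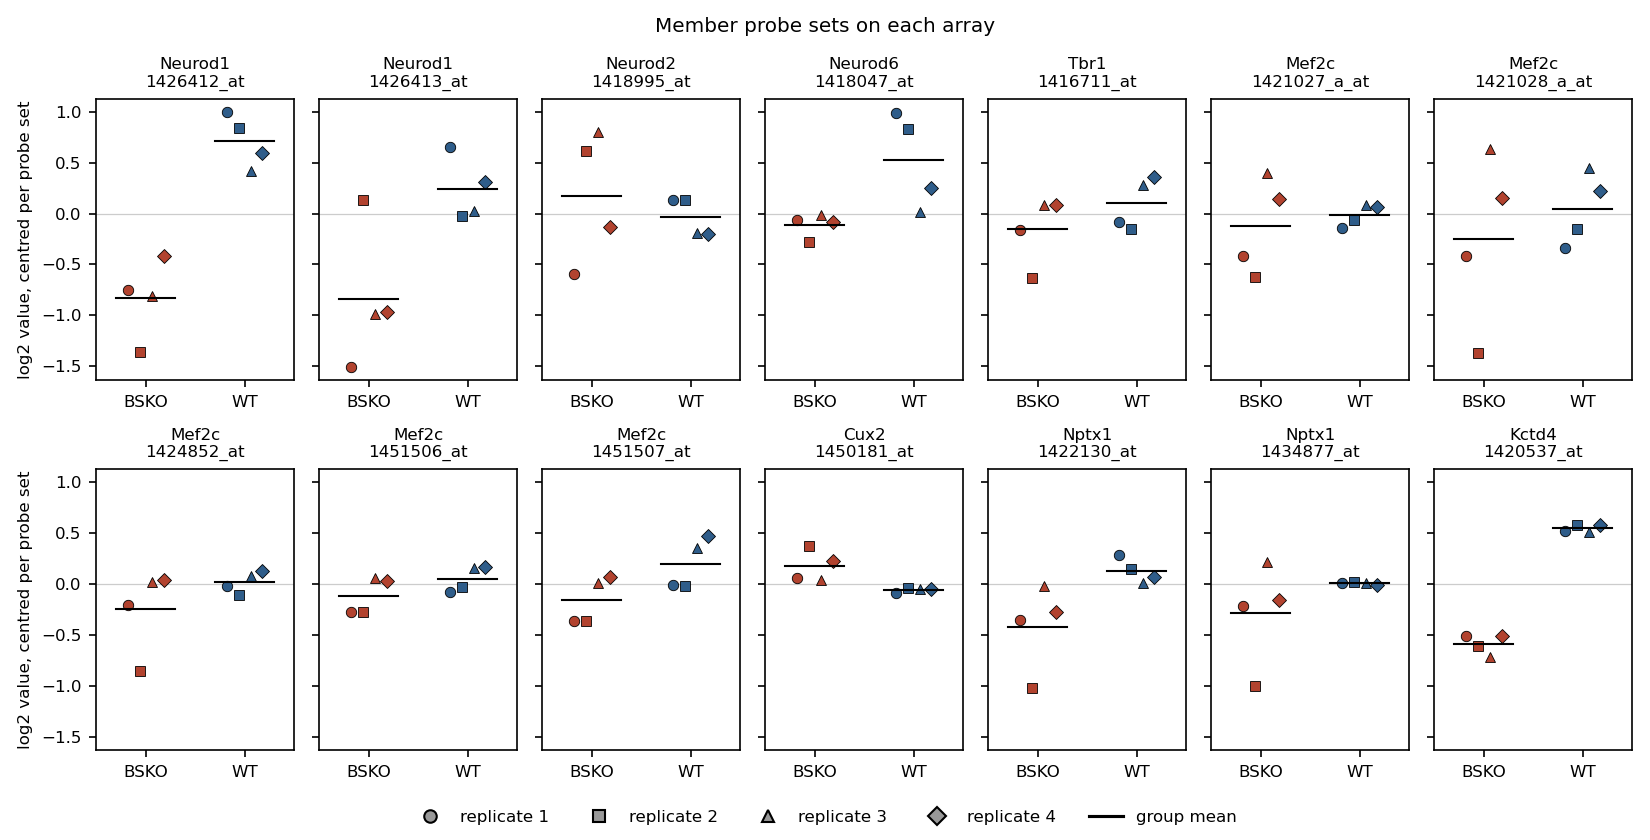
Centred log2 value of each of the 14 member probe sets (y axis) on the 4 BSKO arrays (red, left) and the 4 WT arrays (blue, right), with a marker shape for each replicate number and a line at the group mean. Kctd4 lies between -0.72 and -0.51 on the BSKO arrays and between 0.51 and 0.58 on the WT arrays, while the 5 Mef2c probe sets overlap between the genotypes.

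Neurod1 was read by 2 probe sets. On 1426412_at it had -0.75, -1.36, -0.81 and -0.42 on BSKO 1 to 4, against 1.00, 0.84, 0.42 and 0.59 on WT 1 to 4. Every BSKO array lay below every WT array, with a gap of 0.84 between the nearest arrays. The mean was -0.83 ± 0.39 (SD, n = 4) in BSKO and 0.71 ± 0.26 in WT, a log2 difference of -1.55 (SE 0.21), or 2.92-fold lower in BSKO. This was number 63 by size of difference among the 22626 probe sets with 8 arrays, and number 90 without BSKO 2. For 1426413_at the ranks were 233 and 83 in the same order.

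The other Neurod1 probe set, 1426413_at, had -1.51, 0.13, -0.99 and -0.97 on BSKO 1 to 4, against 0.65, -0.028, 0.028 and 0.31 on WT 1 to 4. Here BSKO 2 lay among the WT arrays, and the other 3 BSKO arrays lay below all WT arrays with a gap of 0.94. Its difference was -1.07 (SE 0.33) with 8 arrays and -1.40 (SE 0.20) without BSKO 2, where that of 1426412_at was -1.37 (SE 0.15). Without that array both probe sets thus gave a difference of nearly the same size, 2.63-fold and 2.59-fold lower in BSKO. On BSKO 2 the value of 1426412_at minus that of 1426413_at was -1.49, and on the other 7 arrays it lay between 0.19 and 0.87. As the mean of its probe sets Neurod1 was lower by 1.31 on the log2 scale (-1.31, SE 0.16), and it was among the 9 genes called in a fit on 1 value per gene, 0.0726% of 12393. Neither probe set alone was called with 8 arrays. On BSKO 2 the mean averaged over values that part, -1.36 and 0.13. It was -0.61 there, against -1.13 to -0.70 on the other BSKO arrays.

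**Figure D2:**
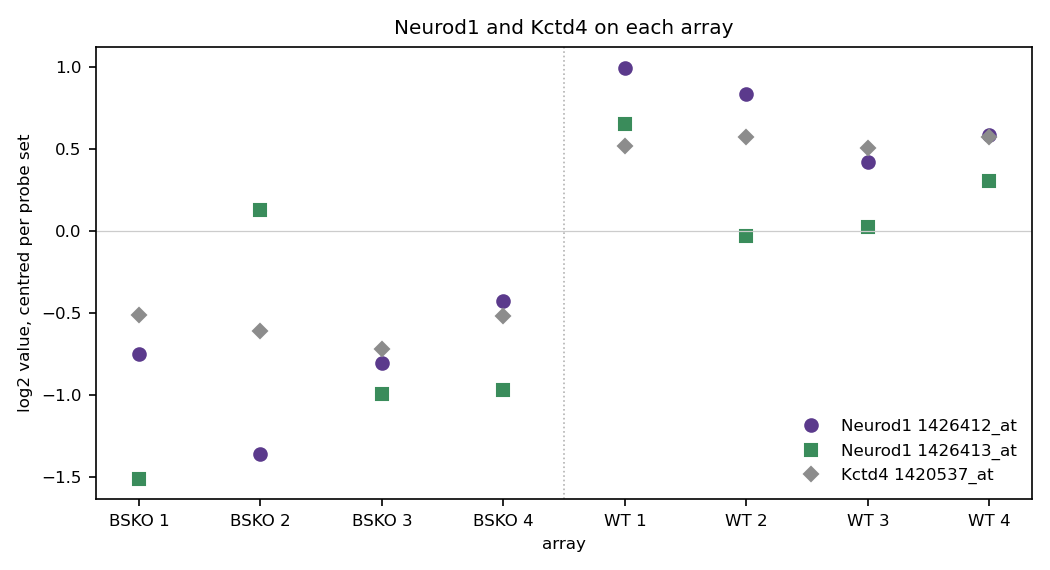
Centred log2 value (y axis) of both Neurod1 probe sets and of Kctd4 on each array (x axis, BSKO left of the dotted line and WT right of it). The Neurod1 probe sets part on BSKO 2, at -1.36 and 0.13, while Kctd4 is at -0.61 there, among the other BSKO arrays.

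Neurod6 (1418047_at) had -0.060, -0.28, -0.013 and -0.087 on BSKO 1 to 4, against 0.99, 0.83, 0.013 and 0.25 on WT 1 to 4. The genotypes did not overlap, but BSKO 3 and WT 3 were only 0.026 apart, and WT 1 and WT 2 carried most of the difference of -0.63 (SE 0.22). WT 1 and WT 2 averaged 0.91 and WT 3 and WT 4 averaged 0.13, so the WT arrays differed among themselves by more than the genotypes did. Within replicates 1 and 2 the difference was -1.08, and within replicates 3 and 4 it was -0.18.

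Neurod2 (1418995_at) had -0.59, 0.62, 0.80 and -0.13 on BSKO 1 to 4, against 0.14, 0.13, -0.19 and -0.20 on WT 1 to 4. BSKO arrays lay on either side of all WT arrays. Its difference was 0.20 (SE 0.30) with 8 arrays and 0.055 (SE 0.29) without BSKO 2, and its sign differed between replicates 1 and 2 (-0.12) and replicates 3 and 4 (0.53).

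**Figure D3:**
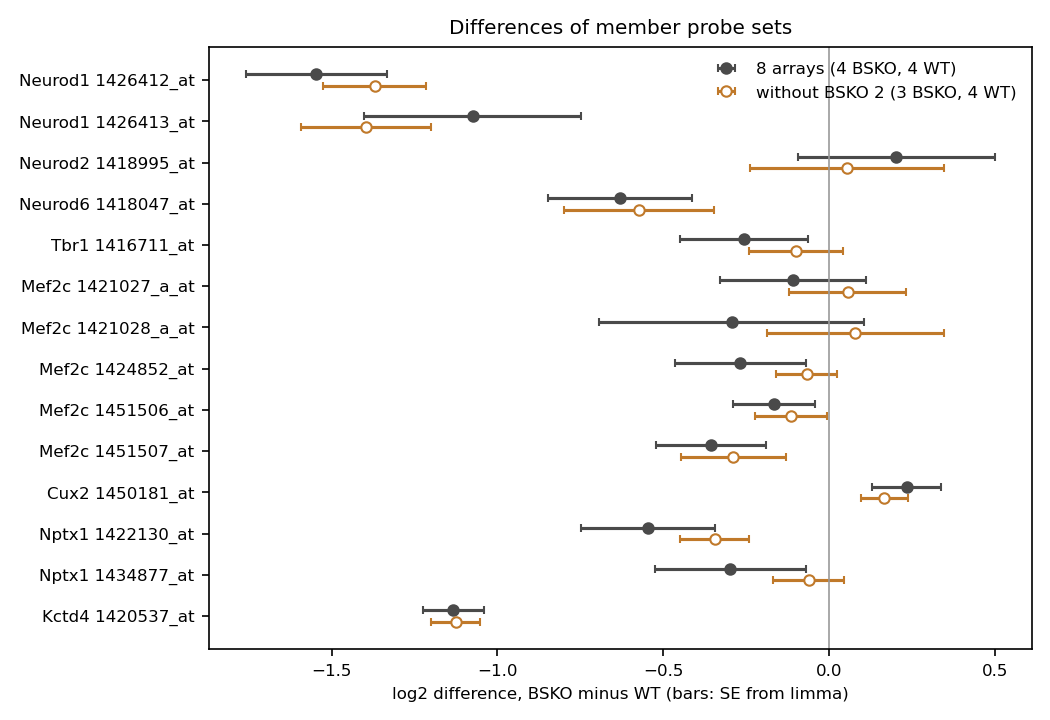
Log2 difference, BSKO minus WT (x axis), for each member probe set (rows), with all 8 arrays (filled) and without BSKO 2 (open), and bars of 1 SE from the limma fit. Without BSKO 2, 13 of the 14 differences are closer to 0, Neurod1 1426413_at being the exception.

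Among the other transcription factor genes, Tbr1 (1416711_at), which marks deep-layer neurons that project to the thalamus, had -0.16, -0.63, 0.081 and 0.081 on BSKO 1 to 4, against -0.081, -0.15, 0.28 and 0.35 on WT 1 to 4. The groups overlapped, with a difference of -0.26 (SE 0.19) and of -0.099 (SE 0.14) without BSKO 2. In both genotypes replicates 1 and 2 were lower than replicates 3 and 4. WT 1 and WT 2 averaged -0.11 and WT 3 and WT 4 averaged 0.32, the opposite order to Neurod6.

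Mef2c encodes a MADS-box factor that is regulated by neuronal activity, and its 5 probe sets differed in size but overlapped between genotypes on each. Their median on each array was -0.36, -0.62, 0.061 and 0.073 on BSKO 1 to 4, against -0.082, -0.068, 0.15 and 0.17 on WT 1 to 4. Differences were -0.11 (SE 0.22) on 1421027_a_at, -0.29 (SE 0.40) on 1421028_a_at, -0.27 (SE 0.20) on 1424852_at, -0.17 (SE 0.12) on 1451506_at and -0.36 (SE 0.16) on 1451507_at. Without BSKO 2 they ran between -0.29 on 1451507_at and 0.079 on 1421028_a_at, and 2 of the 5 were above 0. The probe sets spread most on BSKO 2, from -1.37 to -0.27, a span of 1.10, against spans of 0.12 to 0.62 on the other arrays. In WT, replicates 1 and 2 were again lower than replicates 3 and 4 on all 5.

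Cux2 (1450181_at), a homeodomain factor gene of upper cortical layers, had 0.060, 0.38, 0.042 and 0.23 on BSKO 1 to 4, against -0.088, -0.042, -0.046 and -0.049 on WT 1 to 4. It was the 1 member with every BSKO array above every WT array, by a gap of 0.085. The difference was 0.23 (SE 0.10), and 0.17 (SE 0.070) without BSKO 2. In size it was exceeded or equalled by 37.8% of all tested probe sets.

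Nptx1 binds AMPA-type glutamate receptors at synapses and was read by 2 probe sets. On 1422130_at it had -0.35, -1.02, -0.015 and -0.28 on BSKO 1 to 4, against 0.28, 0.14, 0.015 and 0.074 on WT 1 to 4. The genotypes were apart by 0.029, between BSKO 3 and WT 3. On 1434877_at the values were -0.22, -1.0, 0.22 and -0.16 in BSKO, against 0.0057, 0.021, 0.013 and -0.0057 in WT, and BSKO 3 lay above all WT arrays. Both probe sets were lowest on BSKO 2, at about the same value. With 8 arrays the difference was -0.55 (SE 0.20) on 1422130_at and -0.30 (SE 0.23) on 1434877_at. Without BSKO 2 it was -0.34 (SE 0.10) and -0.061 (SE 0.11) in the same order.

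Kctd4 encodes a member of a family with a potassium channel tetramerisation domain. Its probe set 1420537_at had -0.51, -0.61, -0.72 and -0.51 on BSKO 1 to 4, against 0.52, 0.58, 0.51 and 0.58 on WT 1 to 4. Both groups were tight, with a range of 0.21 in BSKO and 0.068 in WT, and a gap of 1.02 lay between them. The mean was -0.59 ± 0.10 (SD, n = 4) in BSKO and 0.55 ± 0.04 in WT, a difference of -1.13 (SE 0.09), or 2.19-fold lower. Unlike most members it hardly moved without BSKO 2, at -1.13 (SE 0.08), and the difference was -1.11 for replicates 1 and 2 alone and -1.16 for replicates 3 and 4 alone. With BSKO 2 kept, the call was nevertheless lost when any WT array was left out, and no member probe set then passed. Kctd4 was at -1.14 to -1.12 in those fits, where 0 to 2 probe sets of the whole table were called. No fit left out BSKO 2 and a WT array together.

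In bulk tissue, fewer cells of a type and less RNA per cell cannot be told apart, and markers of other cell types also moved between these arrays. The 8 measured genes of striatal projection neurons had a median of 0.10, 0.00, 1.12 and 1.06 on BSKO 1 to 4, against -1.79, -1.70, -0.032 and -0.095 on WT 1 to 4. All 8 were higher in BSKO on average. For the 6 dentate gyrus genes the median was -0.40 to -0.16 in BSKO, against 0.69, 0.75, 0.077 and 0.044 on WT 1 to 4, and all 6 were lower in BSKO on average. Single genes among them overlapped. Prox1 was at 0.34 on BSKO 1 and -0.038 on WT 4, and Dsp at 0.75 on BSKO 2 and -0.18 on WT 3. The 8 meningeal and fibroblast genes had -0.57 to -0.22 in BSKO and 0.17 to 0.76 in WT, and all 8 were lower in BSKO on average. Genotypes did not overlap for 4 striatal, 3 dentate gyrus and 7 meningeal genes. Of all 12393 genes, 849 did not overlap as lower and 793 as higher. With 8 arrays limma called no probe set of these lists. Without BSKO 2 it called 1 of 10 dentate gyrus and 2 of 18 meningeal probe sets, as lower, where 1.14% of all were. The median of the 11 cerebellar genes ranged from -0.22 to 0.10 over the BSKO arrays and from -0.043 to 0.090 over the WT arrays, with 7 lower and 4 higher. Single cerebellar genes spread far more than this median. Their BSKO minus WT differences ran from -1.21 for En2 to 0.22 for Zic1, and Cbln1 had 1.01, 0.44, -1.02 and -1.09 on BSKO 1 to 4, against 0.73, 0.80, -0.47 and -0.47 on WT 1 to 4. Of 3 measured hippocampal pyramidal genes, 1 was lower and 2 higher. Thalamic medians ran from -0.99 to 0.47 in BSKO and choroid plexus medians from -1.82 to 0.68. Of 8 astrocyte genes, 7 were lower, with medians of -0.25 to 0.041 in BSKO and 0.045 to 0.11 in WT. Medians of interneuron, oligodendrocyte, microglial and endothelial genes overlapped between genotypes.

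**Figure D4:**
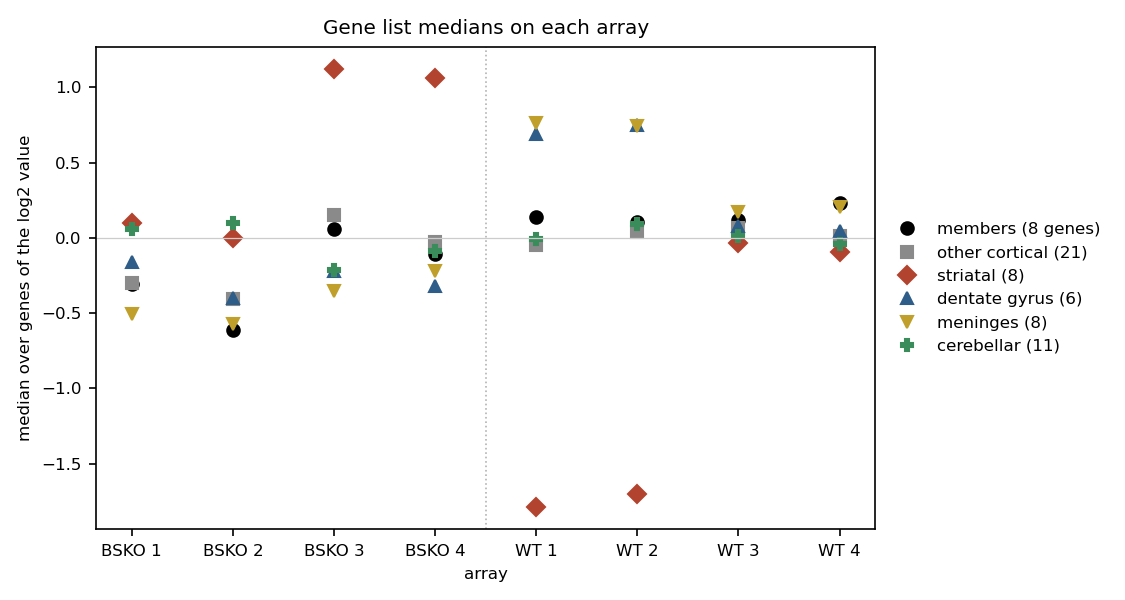
Median over genes of the centred log2 values (y axis) on each array (x axis, BSKO left of the dotted line and WT right of it), for the members and 5 gene lists, with the number of genes measured in brackets. The striatal median lies at 1.12 and 1.06 on BSKO 3 and BSKO 4 and at -1.79 and -1.70 on WT 1 and WT 2, while the cerebellar median stays between -0.22 and 0.10.

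With the striatal median of each array as a covariate, Kctd4 differed by -1.11 (SE 0.14). Neurod1 differed by -1.46 (SE 0.32) on 1426412_at and by -0.83 (SE 0.49) on 1426413_at. No probe set of the whole table was then called. The covariate itself parted the genotypes, at -8.9e-05 or higher in BSKO and -0.032 or lower in WT. Such a fit therefore cannot fully separate genotype from the striatal median. The median SE over all tested probe sets was 0.23 with the covariate and 0.16 without it. With BSKO 2 left out as well, Kctd4 was at -1.08 (SE 0.12) and Neurod1 at -1.07 (SE 0.20) and -1.43 (SE 0.32). Neurod6 shrank to -0.18 (SE 0.25), and in the fit that also left out BSKO 2 it was 0.054 (SE 0.20). Tbr1, at -0.72 (SE 0.19), and all 5 Mef2c probe sets, at -1.19 to -0.43, were lower with the covariate than without it. In the fit that also left out BSKO 2, Tbr1 was at -0.52 (SE 0.10) and the Mef2c probe sets were at -0.76 to -0.27, with 1421028_a_at at -0.65, 1424852_at at -0.27 and 1421027_a_at at -0.31. The part of the dentate gyrus and meningeal markers in the Neurod1, Neurod6 and Kctd4 values was not tested.

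Of 30 cortical excitatory neuron genes outside the members, 21 were measured, 14 lower and 7 higher, and the median BSKO minus WT difference was -0.18, where the median over all genes was 0.030. Without BSKO 2 the split was 11 lower and 10 higher and the median -0.056. The 8 members had a median of -0.34 with 8 arrays and -0.15 without BSKO 2. None of the 38 probe sets of the 21 genes was called by limma with 8 arrays, with 7 at an unadjusted p under 0.05 (10.8% of all tested probe sets were). Without BSKO 2, 12 of the 38 were at an unadjusted p under 0.05, where 19.8% of all were. In that fit 1 of the 38 was called, as lower in BSKO, where 1.63% of all tested probe sets were called and 1.14% as lower. It was that of Lhx2, a LIM homeodomain gene of cortical and hippocampal development (-0.73, limma, Benjamini-Hochberg adjusted p = 0.0218). On this probe set Lhx2 had -0.47, -1.54, -0.22 and -0.58 on BSKO 1 to 4, against 0.42, 0.36, 0.26 and 0.22 on WT 1 to 4, so the genotypes did not overlap with 8 arrays either (-1.01, adjusted p = 0.249).

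Relatives and partners of the NeuroD factors were read by 38 probe sets of 20 genes, 6 lower and 14 higher with 8 arrays and 12 lower and 8 higher without BSKO 2. No probe set of them was called in either fit by limma, with 5 and 11 at an unadjusted p under 0.05 (10.8% and 19.8% of all tested probe sets were). Neurod4, another NeuroD gene, differed by -0.60 on 1418054_at (adjusted p = 0.337) and by 0.27 on 1418055_at (adjusted p = 0.658). Tcf4, an E protein gene that supplies a dimer partner, had its smallest p on 1434149_at, with a difference of -0.48 (SE 0.11, adjusted p = 0.192), and 5 other probe sets at -0.36 to -0.0033. Nhlh1, another neuronal basic helix-loop-helix gene, differed by 0.52 (adjusted p = 0.316).

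Of the family relatives of the other members, 18 genes were measured on 36 probe sets and none was called by limma in either fit. At an unadjusted p under 0.05 there were 5 with 8 arrays and 8 without BSKO 2, where 10.8% and 19.8% of all tested probe sets were. Kctd9 differed by -0.57 (adjusted p = 0.200), Kctd1 by 0.71 on 1425104_at (adjusted p = 0.274) and Cux1 by 0.94 on 1425612_at (adjusted p = 0.295). The other Kctd1 probe set, 1422293_a_at, differed by 0.40, and the mean of both was 0.55. The other 5 Cux1 probe sets differed by -0.14 to 0.51, and the mean of all 6 was 0.26. The MEF2 genes Mef2a and Mef2d lay between -0.18 and 0.12 on their 7 probe sets, and Mef2b differed by 0.25 on its 1 probe set. Among the 8 genes listed as candidate Tbr1 targets, 6 were lower and 2 higher. Among 20 glutamatergic synapse genes, 11 were lower and 9 higher. With 8 arrays limma called none of the probe sets of either list. At an unadjusted p under 0.05 there were 2 of 16 and 4 of 34, where 10.8% of all were. Without BSKO 2 each list had 1 call, where 1.63% of all tested probe sets were called and 1.14% as lower. It was the same probe set, 1435239_at of Gria1, an AMPA receptor subunit gene on both lists (-0.56, limma adjusted p = 0.0193). The other Gria1 probe set, 1448972_at, differed by 0.085 in that fit (adjusted p = 0.762).

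The probe sets whose values were most like those of Neurod1 and Kctd4 were found by the mean absolute difference over the 8 arrays, among all probe sets with 1 symbol. Closest to Neurod1 1426412_at were Mndal (0.109 log2 units apart on average), 2 probe sets of Ccn3 (0.184 and 0.185), Fibin (0.194) and Gjb2 (0.201). Closest to Neurod1 1426413_at were 2 probe sets of the heat shock gene Hspa1b (0.163 and 0.242), C1ql3 (0.243), the serotonin receptor gene Htr3a (0.267) and Pcdh8 (0.283). No gene stood on the lists of both Neurod1 probe sets, whose values part on BSKO 2. For Kctd4 they were Apaf1 (0.106), the nuclear receptor gene Nr2f2 (0.123), Syt17 (0.141), Dpyd (0.145) and B130024G19Rik (0.150). The probe sets of Mndal, Ccn3, Hspa1b and Dpyd in these lists all have names ending in _x_at, _s_at or _a_at, the endings treated here as able to cross-hybridise. Over the 7 arrays without BSKO 2, the closest to 1426412_at were Mndal (0.113), Fibin (0.116), Tcim (0.119), Aldh1a2 (0.144) and Fgl2 (0.155). Those closest to 1426413_at were again the Hspa1b probe sets (0.151 and 0.194), Pcdh8 (0.274), C1ql3 (0.277) and Htr3a (0.290), and still 0 genes stood on both lists. For Kctd4 they were Dpyd (0.0764, on another probe set), Pter (0.0844), 2 probe sets of Apaf1 (0.108 and 0.123) and Syt17 (0.124). Likeness over 7 or 8 arrays is a description and says nothing of shared control.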

How the data were processed

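The values were those of 8 single-channel arrays. The authors processed them with RMA, per the submitters' processing notes, its version not given in the sources used here, and deposited log2 values for 22690 probe sets. These are centred: the 8-array median was 0, to within 1e-05, for 22689 probe sets, a step that no label records. The 64 control probe sets were left out and 22626 were tested with no filter, since centred values carry no brightness. Symbols came from the platform annotation, updated by Entrez number to GRCm38.p6.

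The genotypes were set against each other by limma 3.58.1 (R 4.3.3, moderated two-sided test) with p-values adjusted after Benjamini-Hochberg over the whole table and a threshold of 0.05, after tests on simulated data. The value of a gene is the mean of its probe sets. Members and gene lists were chosen with earlier results of these data known. In each list the rule named up to 6 called genes, or else the 3 with the smallest p, and for likeness the 5 closest probe sets. The alternatives tried were array weights, quantile normalization, array centring, a robust variance prior, a replicate block, replicates 1 and 2 against 3 and 4 as a term, the striatal marker median as a covariate, leaving out each array or cross-hybridising probe sets, a threshold of 0.10 and the probe set with the largest SD. Fits on 1 value per gene and without BSKO 2 in combination with a term, and likeness without BSKO 2, were added after seeing the data. Figures were drawn with matplotlib 3.10.9.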

Additional observations from a re-analysis of the deposited data

Results flagged for a closer look

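Among 40 groups of 4 arrays checked for an array far from the others (14 member probe sets and 6 list medians, each in both genotypes), 2 had a gap to the nearest array larger than Dixon's limit as a share of the whole range, which chance gives in about 1 in 20 groups. Cux2 was -0.0883 on WT 1, and the gap made up 0.862 of a WT range of only 0.046. The median of the basic helix-loop-helix relatives and partners was 0.603 on BSKO 2, against -0.060 to -0.014 on the other BSKO arrays, and the gap made up 0.93 of the range.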

How the results depend on the processing

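Counts of calls moved with the processing more than the differences did. All probe sets called were 7 with 8 arrays, 678 after quantile normalization, 2617 with array weights, 84 with a term for the replicate pairs 1-2 and 3-4 (744 without BSKO 2 as well), 66 at a threshold of 0.10, 0 with the striatal covariate and 0 with the replicate block, and 0 to 369 when 1 array was left out (0 when it was WT 4, 1 for WT 2 and for WT 3, 2 for WT 1 and for BSKO 3, and 369 for BSKO 2). Member probe sets called were 1 with 8 arrays, 2 after quantile normalization, 5 with array weights, 2 with that term (4 without BSKO 2 as well), 2 at 0.10, 0 with the striatal covariate with or without BSKO 2, 0 with the replicate block, and 0 to 3 when 1 array was left out. On 1 value per gene, 2 member genes were called, Neurod1 and Kctd4, where 9 of 12393 genes were. At an unadjusted p under 0.05 there were 2121 probe sets with the block and 1833 with the covariate, and 1576 without WT 4. The cause of the 0 counts was not tested. Deviations from the group means correlated by 0.056 to 0.14 between same-numbered arrays, not all over 0.1. BSKO 2 was closest to WT 1, and BSKO 4 to WT 3. Between genotypes, arrays within replicates 1 and 2 or within 3 and 4 correlated by 0.031 to 0.17. All other pairs were at -0.15 to -0.037. The member median of -0.34 was -0.66 with the striatal covariate but -0.34 with the covariate and without BSKO 2, the cause not tested, and lay between -0.47 and -0.15 when 1 array was left out. The median of the other cortical genes, -0.18 with 8 arrays, was -0.42 with the striatal covariate (-0.15 without BSKO 2 as well), -0.046 with array weights, -0.076 without BSKO 2 and with the pair term, and -0.32 (without BSKO 3) to -0.056 (without BSKO 2) when 1 array was left out. Of 250 member probe set differences under alternatives, 241 moved by less than the SD between replicates, and 4 probe sets changed sign in at least 1 fit: Neurod2, Neurod6 and 2 of Mef2c, none of them called with 8 arrays. Centred values hide signal over background, so dim probe sets could not be told from bright ones.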

Other observations

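Eomes, a T-box gene closely related to Tbr1 that marks intermediate progenitors and some olfactory bulb neurons, was chosen here after its values were seen. On 1435172_at it had 2.25, 2.33, 0.50 and -0.022 on BSKO 1 to 4, against -0.14, -0.12, 0.022 and -0.17 on WT 1 to 4. BSKO 1 and BSKO 2 were high, BSKO 4 was not, and the difference of 1.37 (SE 0.51) did not pass (limma adjusted p = 0.414). On its other probe set, 1426001_at, it differed by 0.86 (adjusted p = 0.507), with BSKO 4 below every WT array. Nr4a2, a nuclear receptor gene of midbrain dopamine neurons that is counted above among the 21 other cortical genes, likewise chosen after its values were seen, was lowest on those arrays on 1450750_a_at, with -1.79 and -2.41 on BSKO 1 and BSKO 2, -0.59 and 0.022 on BSKO 3 and BSKO 4, and -0.0076 to 0.51 in WT (difference -1.43, adjusted p = 0.365). Its other probe set, 1450749_a_at, differed by -0.91 (adjusted p = 0.371), and the mean of both by -1.17.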
